A study of Mus musculus with 78 samples.

Results

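Complex I (NADH:ubiquinone oxidoreductase) is the first enzyme of the mitochondrial respiratory chain. The genes described here are its nuclear-encoded subunits and the Ndufaf assembly factors, chosen by gene symbol alone: every row named Ndufa, Ndufb, Ndufc, Ndufs or Ndufv with a number, every Ndufaf with a number, and Ndufab1. The rule took 46 of 14695 gene rows. They are 7 core subunits of the matrix arm, 9 accessory subunits of the matrix arm, 9 subunits of the proximal membrane arm, 12 of the distal membrane arm, 8 assembly factors, and Ndufa4, which carries the family name but is now regarded as a subunit of complex IV. All 46 passed the filter on low counts in every fit, so no count below leaves a gene out.

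Complex I takes electrons from NADH at the tip of its matrix arm, hands them down a chain of iron-sulfur clusters to ubiquinone, and pumps protons through its membrane arm. The core subunits of the matrix arm are encoded in the nucleus, those of the membrane arm in mitochondrial DNA, and the many accessory subunits in the nucleus again. The nuclear subunits are therefore made on cytosolic ribosomes, imported, and joined in modules with the help of assembly factors. Activated CD8+ T cells build up respiratory capacity as they grow, and regenerate NAD+ in part through this enzyme.

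The cells were primary CD8+ T cells of C57BL/6J mice, taken from lymph nodes and spleen and used on day 3 of activation, and nothing in the labels gives another allele or transgene. In a nutrient experiment they spent 3 h without arginine (NoArginine), branched chain amino acids (NoBCAA), glucose (NoGlucose), glutamine (NoGlutamine) or methionine (NoMethionine), or in complete medium (Control). In a drug experiment they spent 3 h with Halofuginone, which blocks prolyl-tRNA synthetase, with Torin, which inhibits the mTOR kinase, with 4EGi1, which hinders the joining of the cap-binding protein eIF4E to its scaffold eIF4G, or with the solvent DMSO. From each lysate, total RNA and RNA pooled from the heavy polysome fractions of a sucrose gradient were sequenced, in 3 libraries per group, or 60 libraries in 20 groups. Transcripts in heavy polysomes carry many ribosomes. The labels do not say whether replicates came from separate mice or cultures, so a p-value measures the spread between these libraries only.

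Total counts ran between 15144663 and 30637485 in total RNA and between 29917770 and 54272886 in polysome RNA of the nutrient experiment, and between 17506526 and 24929556 in the drug experiment. All 7 CD8+ T cell markers were present, Gzmb at 4717 to 9557 CPM in total RNA, where CPM is a gene's count scaled to a common library size. Of 11 markers of other cells, Cd79a was the 1 with a row, at 0 to 0.326 CPM in total RNA and at most 0.599 CPM in polysome RNA. Levels below are CPM of the scaled library. They are relative within a library, so fewer cells of a type and less RNA per cell cannot be told apart, and a change common to all genes is not seen.

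Promoter sequence from RefSeq (build GRCm38.p6, a window of 300 bases around each start) was matched for 41 of the 46 genes. A motif shared by the transcription factor YY1 and by TISU, an element that starts translation on messages with very short leaders, was found in 5 of the 41, or 12.2%, against 3.00% of 9148 tested genes with a promoter. These 5 windows of 30 bases are shown because the 5 genes that hold the motif differ in how they responded below. Capitals mark the motif, and each window is written along the gene's strand.
Ndufa9, chr6:126849095-126849124, minus strand: ttgtgggagAAGATGGCGGCcgccgtccgc
Ndufs7, chr10:80249464-80249493, plus strand: gccgaggccAAGATGGCGGCgctggcgggt
Ndufaf8, chr11:120098935-120098964, plus strand: gcagggcccAAGATGGCGGCgccctcgaga
Ndufs6, chr13:73328433-73328462, minus strand: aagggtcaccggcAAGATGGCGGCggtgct
Ndufs4, chr13:114388045-114388074, minus strand: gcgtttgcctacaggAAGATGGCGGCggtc
The first base of the motif lay 11 to 36 bases after the annotated start, and all 5 matches were on the coding strand.

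In complete medium the 46 messages were spread on both sides of equal polysome and total levels, a point that the scaling sets. Their median log2 polysome over total was -0.11, against 0.09 over all genes. Polysome over total RNA, tested within Control by edgeR's quasi-likelihood test, was higher for 16 genes and lower for 17, where 37.6% of 13072 tested genes were higher and 28% lower. The 3 highest were Ndufa9 (log2 0.70 ± 0.07 SE), an accessory subunit at the joint of the arms, Ndufv1 (0.65 ± 0.07), which binds NADH and flavin, and the assembly factor Ndufaf1 (0.53 ± 0.08). The 3 lowest were Ndufaf8 (-2.25 ± 0.22), Ndufc1 (-1.88 ± 0.13) and Ndufa1 (-1.33 ± 0.12), small proteins of the assembly machinery and the membrane arm. Adjusted p was 5.35e-07 or less for these 6. The split moved with scaling: with rows derived from ribosomal RNA left out it was 7 higher and 22 lower, and with RLE size factors 8 and 20. Of all genes called, 57.3% were higher, and 44.8% without those rows. The all-gene median then shifted by -0.14. The median of the 46 lay 0.20 below it under all 4 scalings. A scaling moves all genes by nearly the same amount, so this distance could hardly change and is no check on the scaling.

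In DMSO, in libraries the labels describe as polyA RNA, 33 of the 46 were higher in polysome than in total RNA and 2 lower, where 28.4% of 12745 genes were higher and 30.9% lower. Ndufa13 (1.87 ± 0.19), a membrane-arm subunit also known as GRIM-19, Ndufv1 (1.49 ± 0.14) and Ndufs8, an iron-sulfur subunit of the quinone module (2.82-fold), were highest. Ndufaf4 (-0.85 ± 0.12, adjusted p = 7.55e-07) and Ndufaf8 (-0.44 ± 0.17, adjusted p = 0.0268) were the 2 that were lower, and Ndufb8 came next (-0.18 ± 0.15) without passing the test. With library totals 31 were higher and 4 lower, and the share of called genes that were higher was 32.7%, against 47.9% with scaling factors. The Ndufaf8 call was lost without DMSO replicate 1 (adjusted p = 0.155) or without DMSO replicate 4 (0.134). The experiments differ in library type as well as in solvent, and their levels were not tested against each other.

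In total RNA few of these messages were called in any deprivation. Without arginine 0 were higher and 1 lower, where 5.1% of 12642 genes were higher and 4.14% lower. Without branched chain amino acids the count was 0 higher and 1 lower (all genes 16.4% and 13.6%), without glucose 2 and 4 (21.8% and 19%), without glutamine 0 and 5 (20.4% and 18.6%), and without methionine 2 and 1 (19.5% and 15.7%). Median log2 changes over the 46 were -0.01, 0.03, 0.00, -0.07 and 0.03 in that order of conditions. With only the condition and Control in the fit, 14 were called without glucose and 10 without glutamine, counted in either direction. The share of all genes called in those fits is not given here, so these counts cannot be set against it. Without glucose 18 of the 46 had all 3 libraries below all 3 Control libraries, where 26% of all genes did, and without glutamine 10 did (25.5% of all genes). Several of the counts moved with single libraries, and these too are given without the share of all genes called in the same fits. The count without methionine was 12, all higher, without NoMethionine replicate 1, was 0 without NoMethionine replicate 3, and was 1 without Control replicate 1 or 2. The count without glucose was 2 without Control replicate 2, and 3 without NoGlucose replicate 1 or 2 or Control replicate 3. The count without glutamine was 1 without NoGlutamine replicate 1 or Control replicate 3, and 2 without NoGlutamine replicate 3 or Control replicate 2. The single calls without arginine (Ndufs1) and without branched chain amino acids (Ndufb3) were each lost without any of 4 single libraries, replicates 1 and 2 of NoArginine or 1 and 3 of Control for Ndufs1, and replicates 2 and 3 of NoBCAA or 1 and 3 of Control for Ndufb3.

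The clearest change in total RNA was in Ndufaf4, an assembly factor that works with Ndufaf3 on the quinone-binding module. It had 29.6, 29.4 and 33.5 CPM without glucose, against 44.7, 45.4 and 48.8 CPM in Control. The 3 deprived libraries lay below all 3 Control libraries, and the log2 change was -0.58 ± 0.09 (SE, adjusted p = 4.1e-05). Without methionine Ndufaf4 had 47.5, 63.6 and 56.2 CPM in total RNA, where 1 library lay within the Control range (0.27 ± 0.09, adjusted p = 0.0249). That call was lost without NoMethionine replicate 2 (adjusted p = 0.171) or 3 (0.0603), or without Control replicate 1 (0.0781) or 2 (0.0723).

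Other named changes in total RNA were small. Without glucose Ndufaf3 (0.29 ± 0.11) and Ndufv1 (0.18 ± 0.07) were higher and Ndufb4 (-0.40 ± 0.13) lower. Without glutamine Ndufaf7 (-0.37 ± 0.10, adjusted p = 0.00513), an arginine methyltransferase of the assembly machinery, and Ndufc1 (-0.31 ± 0.11) were lowest. Without methionine Ndufaf8 was higher (0.55 ± 0.17) and Ndufaf1 lower (-0.27 ± 0.09). Of these 7 genes, Ndufaf7 was the 1 that kept its call without each single library. In NoMethionine total RNA the libraries also stood apart from each other: the 46 genes summed to 2841, 3732 and 3389 CPM, against 3143, 3317 and 3320 CPM in Control.

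**Figure D1:**
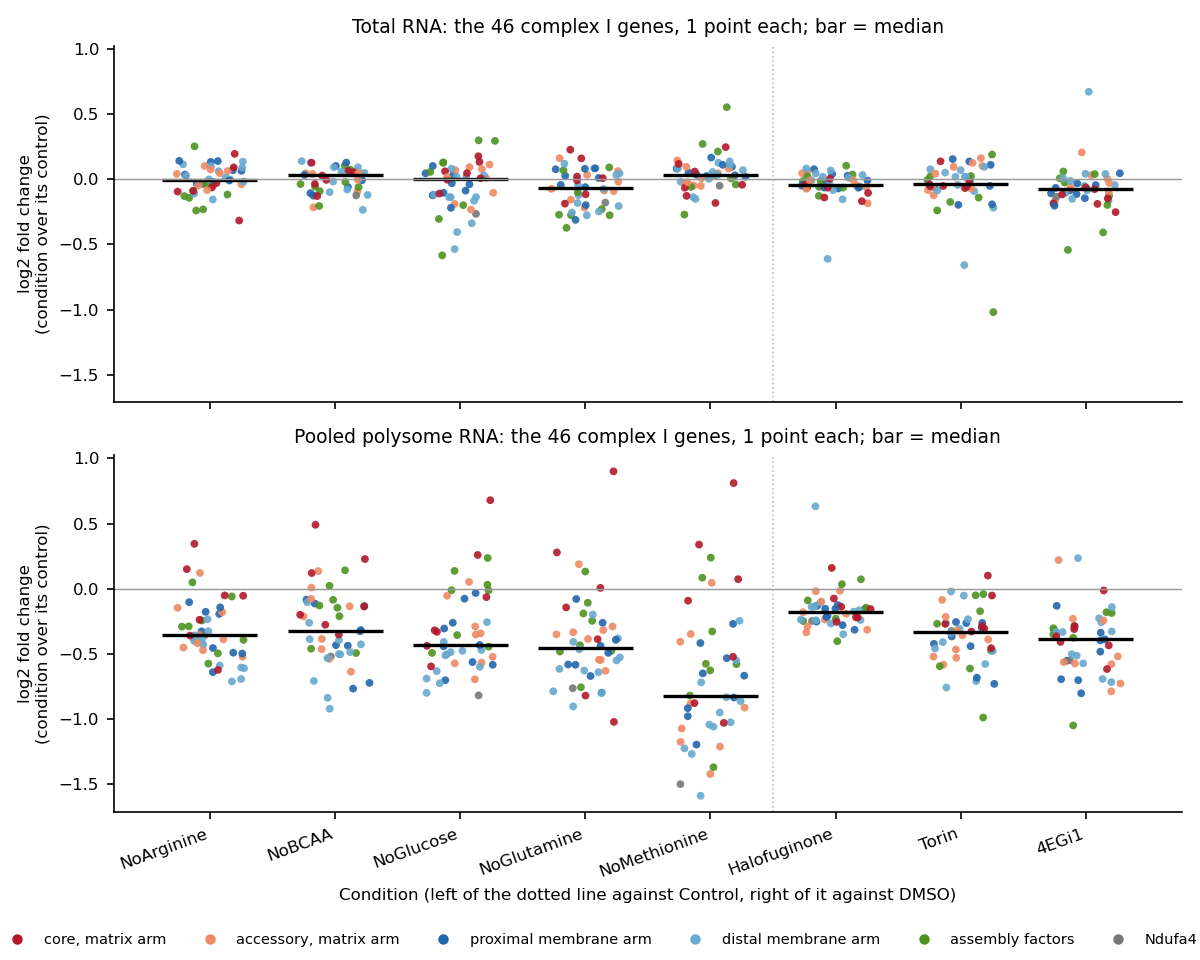
Log2 fold change of each of the 46 genes (1 point each, coloured by role) in total RNA (top) and pooled polysome RNA (bottom), each deprivation against Control and each drug against DMSO; the bar is the median. In total RNA the medians lie between -0.08 and 0.03, while in polysome RNA they lie between -0.18 and -0.82.

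In polysome RNA most of the family was called lower in every deprivation. Without arginine 29 of the 46 were lower and 1 higher, where 21.6% of 12417 genes were lower and 19% higher. Without branched chain amino acids 25 were lower and 2 higher (all genes 27.4% and 28.7%), without glucose 34 and 3 (29.4% and 29.6%), without glutamine 37 and 3 (32.4% and 32.2%), and without methionine 39 and 2 (34.7% and 34.3%). The median log2 change was -0.36, -0.32, -0.43, -0.45 and -0.82 in that order, with the median of all genes between -0.03 and -0.01. These comparisons share the 3 Control libraries. Summed over the 46, the polysome level was 2741 ± 132 CPM without arginine, 2794 ± 81.3 without branched chain amino acids, 2627 ± 142 without glucose, 2666 ± 106 without glutamine and 2333 ± 107 without methionine, against 3140 ± 144 CPM in Control (SD, n = 3 each).

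The polysome to total ratio, tested as an interaction over both kinds of library, changed in the same direction. It was lower for 18 genes and higher for 1 without arginine, where 9.81% of 13072 genes were lower and 6.72% higher. It was lower for 24 and higher for 1 without branched chain amino acids (all genes 18.9% and 8.03%), for 28 and 1 without glucose (16.9% and 8.84%), for 29 and 1 without glutamine (25.2% and 9.98%), and for 38 and 2 without methionine (29.9% and 19.2%). The median ratio change was -0.37, -0.43, -0.42, -0.48 and -0.95, against -0.04, -0.12, -0.08, -0.15 and -0.14 over all genes. Leaving out rows derived from ribosomal RNA before scaling raised the median of all genes by 0.12 to 0.16 except without arginine, where it rose by 0.07. It moved the share of called genes that were higher to between 50.6% and 61%, against between 28.4% and 40.7% with all rows, and left 13 calls among the 46 without branched chain amino acids and 18 without glucose. With library totals in place of scaling factors 15 were called without glucose. The median of the 46 lay 0.33, 0.30, 0.34, 0.33 and 0.81 below that of all genes under each of 4 scalings. These distances could hardly change, since a scaling moves all genes by nearly the same amount, and they are no check on the scaling. Counted in either direction, the calls without arginine numbered 6 without NoArginine replicate 1, and 10 without NoArginine replicate 2 or without Control replicate 2 or 3. Those without branched chain amino acids numbered 14 without NoBCAA replicate 1 and 16 without Control replicate 2, and those without glucose 17 without NoGlucose replicate 1 and 19 without Control replicate 2. The share of all genes called is not given for the fits with a library left out or with another scaling.

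**Figure D2:**
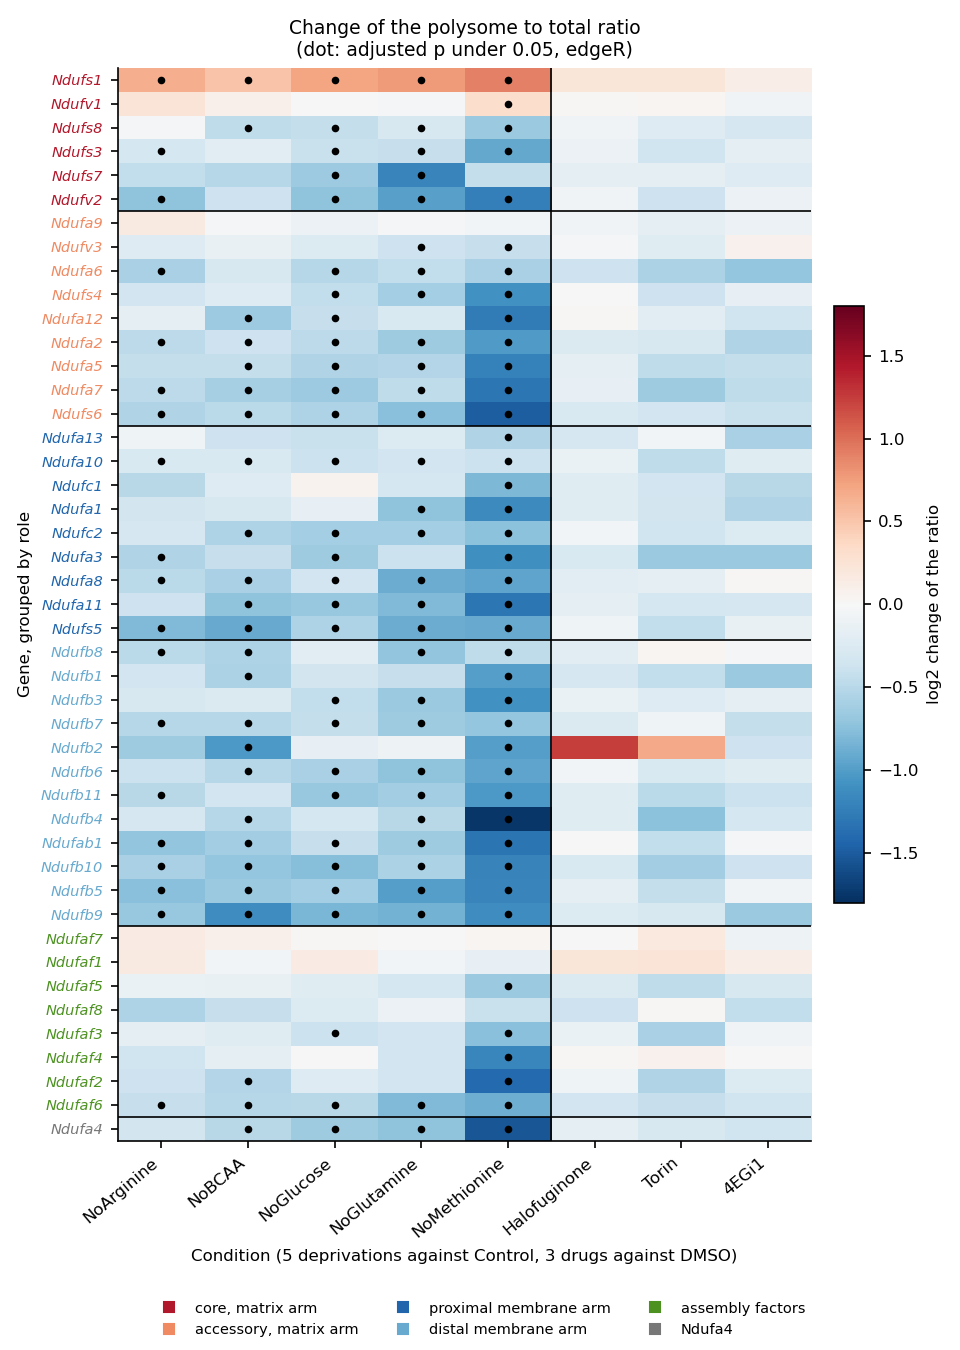
Log2 change of the polysome to total ratio for the complex I genes shown (rows, grouped and coloured by role) in 5 deprivations against Control and 3 drugs against DMSO (columns); a black dot marks adjusted p under 0.05. The NoMethionine column has 40 dots and the 3 drug columns have none, and Ndufs1 is the gene with a dotted positive value in all 5 deprivations.

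Among the 7 core subunits of the matrix arm, 2 were called higher and 3 lower in polysome RNA without methionine (all genes 34.3% and 34.7%). The 2 higher ones were Ndufs1 and Ndufv1. Ndufs1, the largest subunit and the carrier of several iron-sulfur clusters near the NADH site, had 141, 145 and 144 polysome CPM without methionine, 154, 161 and 142 without glutamine, and 144, 137 and 110 without glucose, against 93.8, 75.9 and 74.7 CPM in Control. It had 126, 107 and 110 CPM without branched chain amino acids and 114, 104 and 92.9 without arginine. All libraries of the first 4 deprivations lay above all Control libraries, while those without arginine overlapped them by 1 library. The polysome log2 change was 0.81 ± 0.11 without methionine (adjusted p = 1.31e-06), 0.90 ± 0.11 without glutamine (4.63e-07), 0.68 ± 0.11 without glucose (1.85e-05), 0.49 ± 0.11 without branched chain amino acids (0.000596) and 0.35 ± 0.11 without arginine (0.0134).

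The Ndufs1 ratio rose in all 5 deprivations, by 0.65 ± 0.14 without arginine (adjusted p = 0.00251), 0.51 ± 0.14 without branched chain amino acids (0.00661), 0.70 ± 0.14 without glucose (0.000336), 0.77 ± 0.14 without glutamine (6.72e-05) and 0.91 ± 0.14 without methionine (2.54e-06). In total RNA Ndufs1 had 82.5, 79.5 and 77 CPM without methionine, against 102, 81.1 and 88.3 CPM in Control. Its total level was called lower without arginine (-0.32 ± 0.09, adjusted p = 0.0392). The polysome call without arginine was lost without NoArginine replicate 1 (adjusted p = 0.0839) or without Control replicate 3 (0.0668).

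Ndufv1, the NADH-binding subunit, had 245, 270 and 290 polysome CPM without methionine, against 218, 200 and 218 CPM in Control, with no overlap (0.34 ± 0.08, adjusted p = 0.000719). Its polysome level was also higher without glutamine (0.28 ± 0.08), glucose (0.26 ± 0.08) and branched chain amino acids (0.23 ± 0.08). Its ratio was called higher without methionine alone (0.31 ± 0.10, adjusted p = 0.0107). The polysome call without glucose was lost without NoGlucose replicate 1 (adjusted p = 0.0614), and that without branched chain amino acids without NoBCAA replicate 2 (0.0502) or 3 (0.052) or Control replicate 2 (0.0929).

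Ndufv2, Ndufs3 and Ndufs8 were the 3 core subunits called lower without methionine. Ndufv2, the iron-sulfur partner of Ndufv1, had 45.2, 48.6 and 44.1 polysome CPM without methionine and 44.2, 41.4 and 53.1 without glutamine, against 90.8, 99.6 and 90.9 CPM in Control. Both deprived groups lay well below Control (-1.03 without methionine, and -1.02 ± 0.11 without glutamine, adjusted p = 2.65e-07). Ndufs7 fell most in the ratio without glutamine, where polysome over total was -1.56, -1.28 and -1.20 in the 3 lysates, against -0.26, -0.35 and 0.05 in Control, with no overlap (-1.19 ± 0.20, adjusted p = 2.47e-05). Without methionine the Ndufs7 ratio change was -0.43 and did not pass the test. Ndufs3 and Ndufs8, both of the quinone module, changed in the ratio by -0.92 and -0.67.

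**Figure D3:**
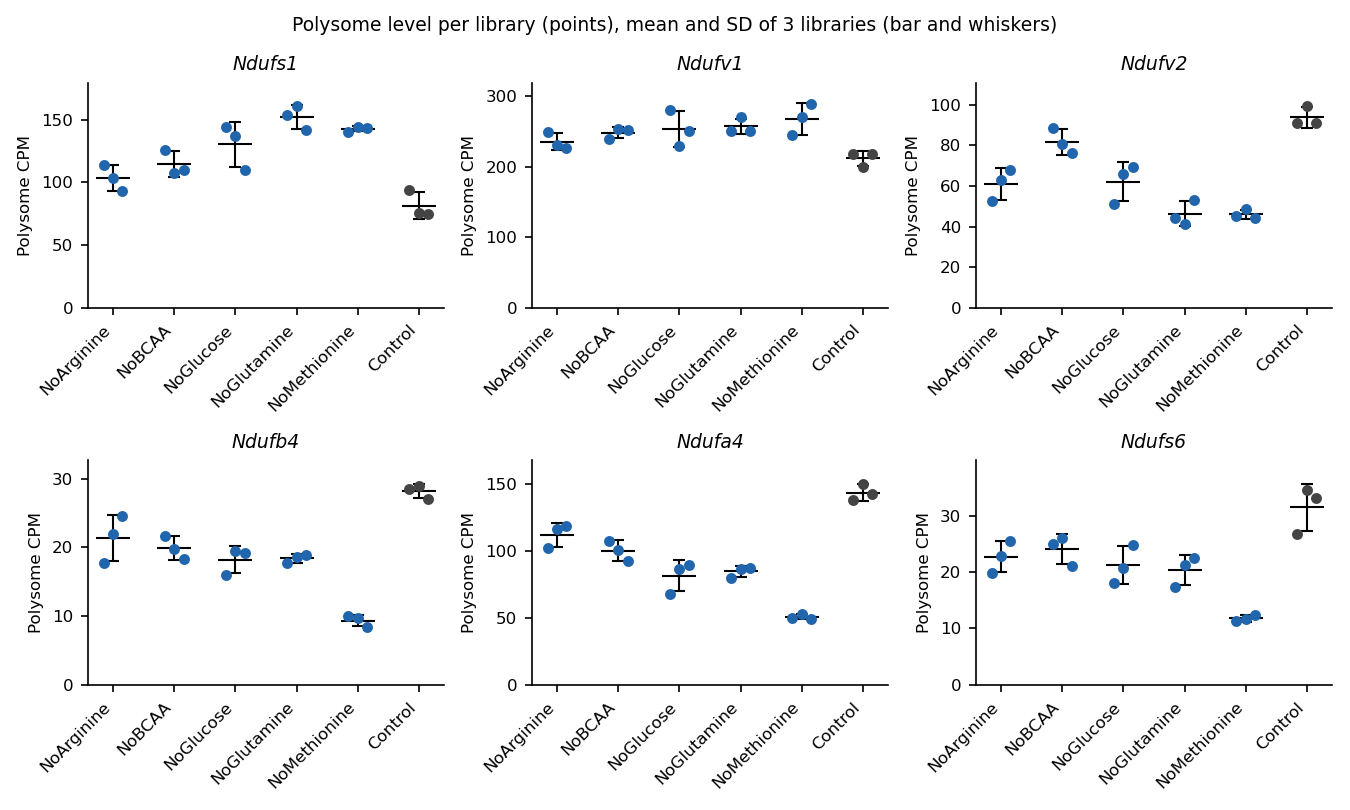
Polysome CPM of 6 genes in each library (points) with the mean and SD of 3 libraries, the 5 deprivations left and Control right. Ndufs1 and Ndufv1 lie above Control in most deprivations, Ndufv2 lies lowest without glutamine and methionine, and Ndufb4, Ndufa4 and Ndufs6 lie lowest without methionine.

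Accessory subunits of the matrix arm were lower in polysome RNA for 8 of 9 genes without methionine (34.7% of all genes), with a median polysome change of -0.91. Ndufs6, a zinc-binding subunit added late in assembly, had 11.2, 11.7 and 12.4 polysome CPM without methionine, against 26.7, 34.6 and 33.1 CPM in Control. The groups were far apart (-1.42 in polysome RNA, -1.48 in the ratio), and total RNA had 36.9, 54.3 and 46.4 CPM without methionine, against 46.8, 47.7 and 46.4 CPM in Control. Ndufa12, Ndufa5 and Ndufa7 changed by -1.21, -1.17 and -1.07 in polysome RNA and Ndufs4, whose loss gives mice a Leigh-like disease, by -0.91. Ndufa9 was the exception, at 0.05 without methionine, not past the test, and 0.19 without glutamine (adjusted p = 0.0182). Ndufv3 was called lower without methionine (-0.35) and without glutamine (-0.32).

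The proximal membrane arm was lower in polysome RNA for 9 of 9 genes without methionine (34.7% of all genes), with a median polysome change of -0.67. Ndufa11, which sits where complex I meets complex III in supercomplexes, changed by -1.19, Ndufa1 by -0.98 and Ndufa3 by -0.91, while Ndufa10 changed by -0.27. Ndufs5 was among the lowest ratios without arginine. Its polysome level was 13.2, 14.9 and 16.9 CPM without arginine, against 21.7, 24.3 and 24.0 CPM in Control, and its ratio change was -0.80 ± 0.15 (adjusted p = 0.000729), with no overlap in polysome RNA. In the other deprivations its ratio change lay between -0.91 and -0.56, each past the test.

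The distal membrane arm was lower in polysome RNA for 12 of 12 genes without methionine (34.7% of all genes), 11 of 12 without glutamine (32.4%), 12 of 12 without glucose (29.4%), 11 of 12 without branched chain amino acids (27.4%) and 10 of 12 without arginine (21.6%). Ndufb4 had 9.98, 9.67 and 8.43 polysome CPM without methionine, against 28.6, 29 and 27 CPM in Control. The deprived libraries were at about a 0.333-fold level (-1.59 ± 0.11, adjusted p = 3.85e-10), and the ratio fell by 1.75 ± 0.18 (adjusted p = 4.23e-09). In total RNA Ndufb4 had 21.5, 39.8 and 29.5 CPM without methionine, against 26.8, 30 and 30 CPM in Control, and the groups overlapped.

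Ndufb5 and Ndufb9 were low in several deprivations. Ndufb5 had 25.4, 28.5 and 31.1 polysome CPM without arginine and 23.8, 24.6 and 26.1 without glutamine, against 43.2, 50.0 and 45.8 CPM in Control. Neither deprived group overlapped Control (-0.71 ± 0.10, adjusted p = 3.61e-05, and -0.90 ± 0.10, adjusted p = 2.78e-07). Ndufb9, which binds the acyl carrier protein Ndufab1, had 8.83, 7.68 and 8.76 polysome CPM without branched chain amino acids, against 13.9, 17.5 and 16.2 CPM in Control, again with no overlap (-0.92 ± 0.12, adjusted p = 4.37e-06, and -1.12 ± 0.18 in the ratio). Ndufab1 itself fell by 0.69 ± 0.10 without arginine (adjusted p = 3.78e-05) and Ndufb10 by 0.80 ± 0.09 without glucose (5.32e-07). Ndufb2 was scarce, at 0.461 to 2.18 CPM over all 60 libraries, and its ratio call without branched chain amino acids (-1.04 ± 0.34, adjusted p = 0.0241) was lost without replicate 1 or 2 of NoBCAA or replicate 2 or 3 of Control (adjusted p 0.0834 to 0.152).

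Of the 8 assembly factors, 6 were lower without methionine in polysome RNA (34.7% of all genes) and 5 in the ratio (29.9%). Ndufaf2, a chaperone related to Ndufa12, changed by -1.37 in polysome RNA and Ndufaf4 by -0.82, while Ndufaf7 was at 0.09 and Ndufaf8 at 0.24, neither past the test. Ndufaf4 had 12.5, 12.6 and 10.8 polysome CPM without methionine, against 18.6, 24.5 and 20.3 CPM in Control, so that its polysome level was below Control and 2 of its 3 total libraries above it. Its ratio changed by -1.18 without methionine and by 0.01 without glucose, where polysome and total RNA were both lower. Ndufaf6 was lower in the ratio in all 5 deprivations, between -0.88 and -0.42.

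Ndufa4 was among the 2 lowest genes in polysome RNA without methionine. It had 50.4, 52.9 and 49.5 polysome CPM without methionine and 68.2, 86.7 and 90 without glucose, against 138, 150 and 143 CPM in Control. No deprived library reached the Control range, and the level was 0.354-fold without methionine (adjusted p = 9.92e-11) and changed by -0.82 ± 0.09 on the log2 scale without glucose (3.58e-07). The ratio without methionine changed by -1.54 ± 0.14 (adjusted p = 3.95e-10). Without glucose Ndufa4 was also called lower in total RNA (-0.27), at 95.2, 99.9 and 105 CPM against 107, 127 and 126 CPM in Control. Its ratio change without glucose was -0.64 and passed the test.

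Methionine deprivation was also set against each other deprivation. In polysome RNA 30 of the 46 were lower without methionine than without arginine (25.7% of all genes), 27 than without branched chain amino acids (23.1%), 30 than without glucose (27.6%) and 22 than without glutamine (23.6%). In the ratio the counts were 30 (16.8%), 25 (9.85%), 22 (17.1%) and 17 (8.47%), with medians of -0.52, -0.47, -0.44 and -0.37. The ratio count was 19 against arginine and 16 against branched chain amino acids without NoMethionine replicate 2. Against glutamine, 11 were lower without NoMethionine replicate 2 or without NoGlutamine replicate 3. The share of all genes called with a library left out is not given for these comparisons. Ndufb4 was the lowest gene of the 46 in each of the 4 ratio comparisons, between -1.44 and -1.23. Ndufs7 was the gene that went furthest the other way, 0.76 higher without methionine than without glutamine.

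Within NoMethionine, polysome over total was lower for 39 of the 46 and higher for 6, where 38.6% of 13072 genes were lower and 39.4% higher. Ndufs1, Ndufv1, Ndufa9, Ndufaf1 and Ndufaf7 were among those that were higher. Ndufs1 was at 0.78 without methionine, against -0.13 in Control, and Ndufb4 was at -1.76, against -0.01. Ndufc1 and Ndufaf8, already low in Control, were lowest at -2.68 and -2.66.

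**Figure D4:**
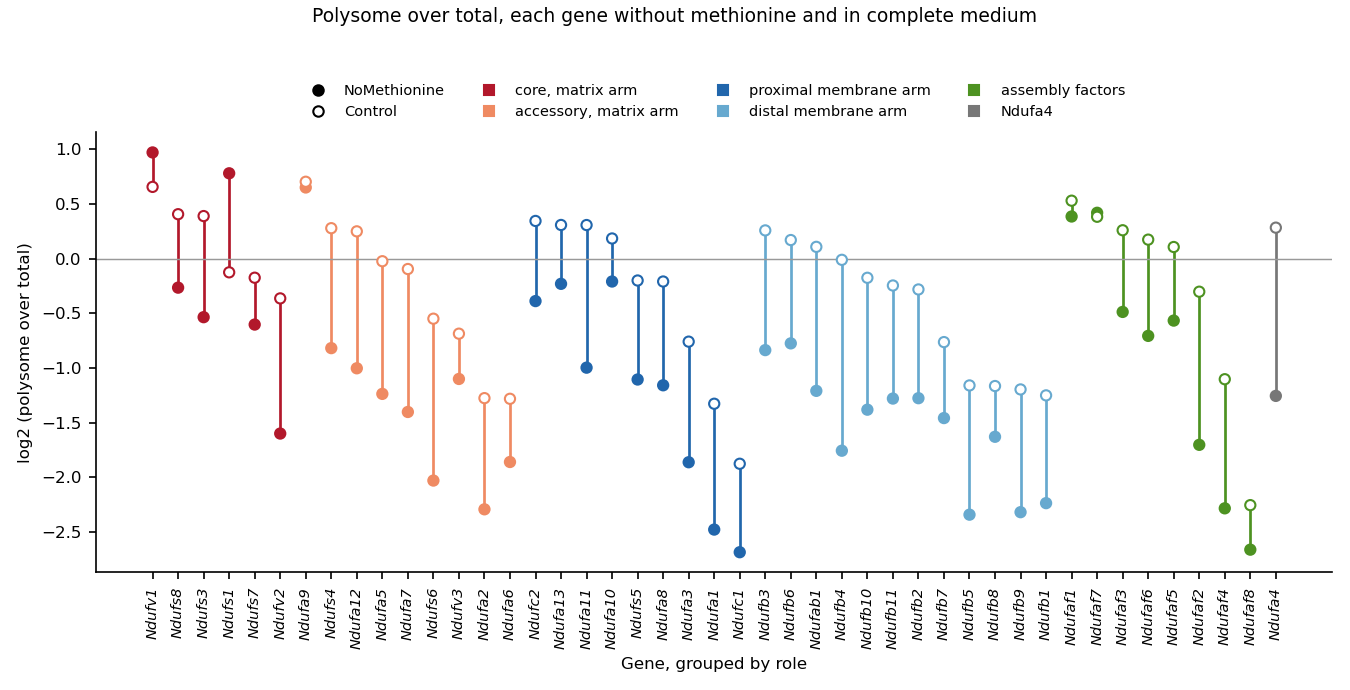
Log2 polysome over total of the complex I genes shown, without methionine (filled) and in Control (open), grouped and coloured by role. The 12 genes of the distal membrane arm all drop, between -2.34 and -0.78 without methionine, while Ndufs1 and Ndufv1 lie higher without methionine than in Control.

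The same values for other mitochondrial genes place the family. Of 37 nuclear subunits of complexes II to V, 31 were lower and 3 higher in polysome RNA without methionine, with a median of -0.98, and 76 mitochondrial ribosomal proteins had 66 lower and 5 higher, with a median of -0.73. Among all genes 34.7% were lower and 34.3% higher there. In the ratio the medians without methionine were -0.95 for the 46, -1.06 for complexes II to V, -0.86 for mitochondrial ribosomal proteins and -0.61 for cytosolic ribosomal proteins. Without glucose they were -0.42, -0.54, -0.42 and -0.93. Of 11 further assembly factors without the family name, 8 were lower and 2 higher in the ratio without methionine (all genes 29.9% and 19.2%). Timmdc1 changed by -0.86 and Dmac1 by -1.15, and Acad9 (0.33) and Aifm1 (0.44) were the 2 that rose. Of the 5 complex I subunits encoded in mitochondrial DNA with a row, mt-Nd4 (-0.64), mt-Nd5 (-0.59) and mt-Nd6 (-1.49) had lower ratios without methionine. These are not translated on the cytosolic ribosomes that the gradient separates by number. CD8+ T cell markers moved as well. In polysome RNA 6 of 7 were lower without methionine (median -0.35), 5 without glucose (-0.41), 4 without glutamine (-0.28), 3 without branched chain amino acids (-0.17) and 1 without arginine (0.06). The shares of all genes that were lower were 34.7%, 29.4%, 32.4%, 27.4% and 21.6% in that order. In total RNA 5 of 7 markers were lower without glutamine (median -0.28, 18.6% of all genes). Their part in the result was not tested.

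**Figure D5:**
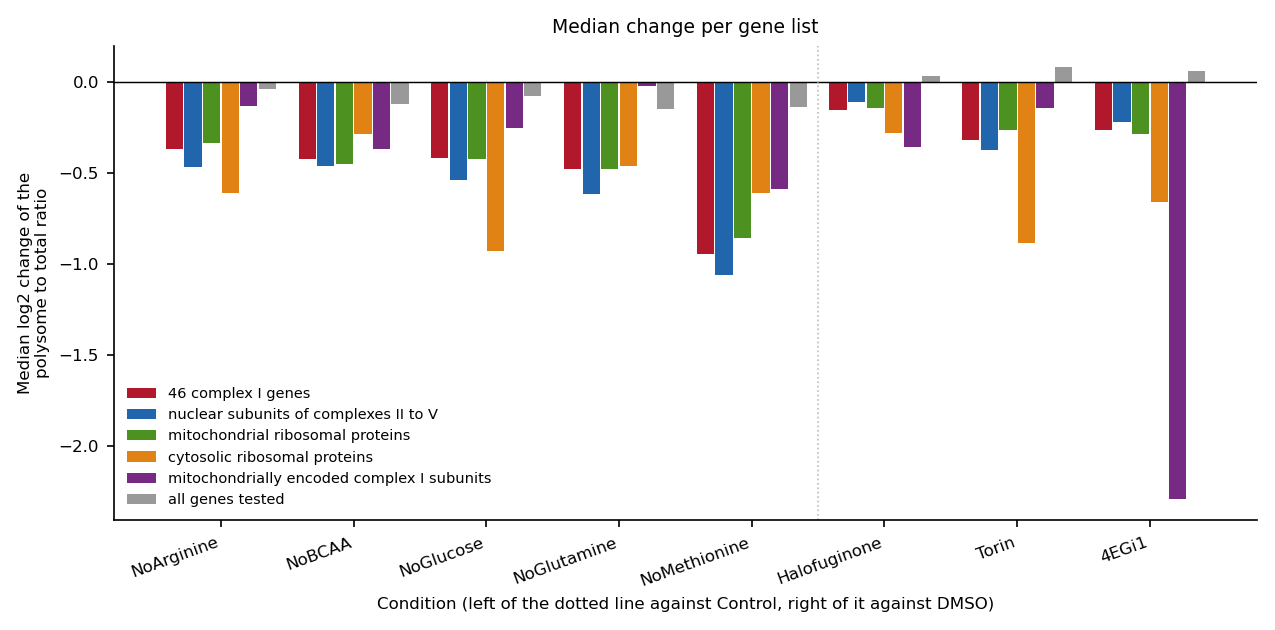
Median log2 change of the polysome to total ratio per gene list (bars) in 5 deprivations against Control and 3 drugs against DMSO. The bar of the 46 complex I genes is deepest without methionine at -0.95, where the bar for complexes II to V is at -1.06 and that for all genes at -0.14.

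The 3 drug comparisons share the DMSO libraries. In total RNA 0 of the 46 were called with Halofuginone, by edgeR or by DESeq2, where edgeR called 0.239% of 12535 genes higher and 0.0399% lower. There 0 of the 46 also had an unadjusted p under 0.05 by edgeR, a count given without its share over all genes. With Torin 2 were lower and 0 higher (all genes 13.3% in each direction), and with 4EGi1 3 were lower and 0 higher (12.3% and 14.1%). In polysome RNA 0 were again called with Halofuginone by either tool, where edgeR called 0.00818% of 12223 genes lower and 0.0409% higher. Again 0 had an unadjusted p under 0.05 by edgeR with Halofuginone, also without its share over all genes. In polysome RNA 13 were lower with Torin (8.3% lower, 8.48% higher) and 20 with 4EGi1 (14.5% lower, 14.1% higher), none higher. The median polysome change was -0.18 with Halofuginone, -0.33 with Torin and -0.38 with 4EGi1.

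Both polysome counts fell when a single library was left out, which also left fewer libraries in that group. The share of all genes called in these fits, and in those with library totals, is not given, so the counts cannot be set against it. The Torin count was 2 without DMSO replicate 3, 3 without Torin replicate 3, 5 without Torin replicate 4 and 8 without Torin replicate 1, and the 4EGi1 count was 3 without DMSO replicate 3 and 5 without 4EGi1 replicate 4. With library totals in place of scaling factors each count was 5. That scaling raised the median of all genes by 0.18 with Torin and 0.26 with 4EGi1. It raised the share of called genes that were higher to 82.7% and 83.7%, against 50.6% and 49.3%. The median of the 46 lay 0.30 to 0.32 and 0.38 below all genes under the 4 scalings. A scaling moves all genes by nearly the same amount, so these distances could hardly change. The summed polysome level was 5354 ± 197 CPM with Torin, 5070 ± 553 with 4EGi1 and 5969 ± 1052 with Halofuginone, against 6774 ± 1035 CPM in DMSO (SD, n = 3 each), and DMSO ranged between 6099 and 7966 CPM.

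The ratio had 0 calls among the 46 with each drug by edgeR's quasi-likelihood test. Over all 12745 genes that test called 0% with Halofuginone, 1.67% lower and 0.118% higher with Torin, and 0.282% in each direction with 4EGi1. Before adjustment, 1 of the 46 had a p under 0.05 with Halofuginone, 19 with Torin and 8 with 4EGi1. The share of all genes under that unadjusted threshold is not given here, so these counts cannot be set against it. Median ratio changes over the 46 were -0.15 with Halofuginone, -0.32 with Torin and -0.27 with 4EGi1, against 0.03, 0.08 and 0.06 over all genes. With total and polysome RNA of a lysate kept as a block, 3 were called with Torin and 2 with 4EGi1. DESeq2 called 5 with Torin, 1 with 4EGi1 and 0 with Halofuginone. The lysate block and DESeq2 counts are given without the share of all genes called in those fits. Deprivation and drug were never in 1 fit, so whether their responses differ was not tested.

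The lowest called gene of the 46 in polysome RNA was Ndufaf4 with Torin and Ndufaf8 with 4EGi1, both assembly factors. Whether the 8 assembly factors stood apart as a class was not tested. With Torin 4 of the 8 were lower (8.3% of all genes), against 1 of 7 core, 2 of 9 accessory, 3 of 9 proximal and 3 of 12 distal subunits. Their median was -0.37, against -0.33 over the 46, which include them. With 4EGi1 2 of the 8 were lower (14.5% of all genes), against 3 of 7, 6 of 9, 4 of 9 and 4 of 12 in that order of roles. Their median was -0.31, against -0.38 over the 46. Ndufaf4 had 25.9, 27.6 and 24.6 CPM in total RNA with Torin, against 48.5, 57.8 and 51.9 CPM with DMSO. The Torin libraries were near a 0.493-fold level with no overlap (-1.02 ± 0.10, adjusted p = 1.29e-06). In polysome RNA Ndufaf4 had 13.1, 14.1 and 13.7 CPM with Torin, against 23.0, 27.6 and 30.6 CPM with DMSO (-0.99 ± 0.15, adjusted p = 0.000306), and its ratio change was 0.08.

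Ndufaf8, the partner of Ndufaf5, had 8.20, 7.85 and 6.93 polysome CPM with 4EGi1, against 13.1, 19.0 and 15.5 CPM with DMSO, with no overlap (-1.05 ± 0.21, adjusted p = 0.00172). In total RNA it had 16.7, 15.1 and 15.7 CPM with 4EGi1, against 22.2, 23.1 and 24.0 CPM with DMSO (-0.54 ± 0.11, adjusted p = 0.0021). Ndufaf1 was lower in total RNA with 4EGi1 (-0.41 ± 0.10), Ndufa3 in polysome RNA with 4EGi1 (-0.80 ± 0.20) and Ndufb10 in polysome RNA with Torin (-0.76 ± 0.16, adjusted p = 0.0039). The Ndufa3 call was just lost without DMSO replicate 3 (adjusted p = 0.0506). Ndufs1, which rose in the deprivations, had 67.6, 73 and 82.6 polysome CPM with 4EGi1 and 74.8, 88.7 and 78 with Torin, against 68.2, 84.6 and 72.4 CPM with DMSO, and was called with no drug.

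The mitochondrially encoded subunits were much lower with 4EGi1. All 5 were called lower in polysome RNA, with a median change of -3.05 (mt-Nd4 -4.32, mt-Nd5 -3.15, mt-Nd2 -3.05), and 3 of 5 were lower in total RNA, with a median of -0.51. Among all genes 14.5% were lower with 4EGi1 in polysome RNA and 12.3% in total RNA. Over the 46 nuclear genes the medians with 4EGi1 were -0.38 in polysome RNA and -0.08 in total RNA.

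The 5 genes with the motif shown above did not respond alike. Without methionine the ratio changed by -1.48 for Ndufs6 and -1.10 for Ndufs4, both past the test, and by -0.43 for Ndufs7, -0.41 for Ndufaf8 and -0.05 for Ndufa9, none of which passed. With 4EGi1 their polysome changes were -0.56 for Ndufs6 and -1.05 for Ndufaf8, both past the test, and -0.24 for Ndufs4, -0.43 for Ndufs7 and -0.23 for Ndufa9. The NRF1 motif was in 9 of the 41 promoters (22%, against 12.1% of tested genes), the ETS motif CCGGAAG in 6 (14.6%, against 21.8%), the cAMP response element TGACGTCA in 3 (7.32%, against 3.72%) and the E-box CACGTG in 2 (4.88%, against 11.9%). The ERR motif TCAAGGTCA and the ATF4 motif TGATGNAAT were in none of the 41, and in 0.295% and 0.448% of tested genes. All were searched on both strands, and YY1 and TISU share 1 set of letters.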

How the data were processed

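Gene counts per library are those the authors deposited as raw counts per Ensembl gene. The submitters' processing notes name FastQC, MultiQC, Trimmomatic, STAR, HTSeq, edgeR and build GRCm39, with no versions or roles. Each of the 60 count columns was matched to a library by name. A further 18 monosome libraries were not analysed here. Nutrient and drug experiments were fitted separately with edgeR 4.0.16 in R 4.3.3 (filterByExpr with a minimum count of 10, TMM scaling, glmQLFit and glmQLFTest), with p-values adjusted by Benjamini-Hochberg over all genes tested and a threshold of 0.05. Ratio changes are interaction terms in a joint fit of total and polysome RNA. DESeq2 1.42.0 was an alternative, beside RLE size factors, library totals, no filter, no rows derived from ribosomal RNA, a replicate block, a fit of 2 groups, and each library left out. Per-lysate ratios use CPM with 0.5 added.

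Deviations of libraries with the same replicate number were weakly correlated on average within a fraction. The mean was 0.0353 and 0.0755 in nutrient total and polysome RNA and 0.0776 and 0.0584 in the drug experiment, with pairs below 0 in each. Single pairs reached 0.343 in nutrient polysome RNA, where 40% of pairs were over 0.1, as were 42.9% in drug polysome RNA. Pairs with different numbers were not compared, so these values do not decide whether libraries of 1 number deviated together. Total and polysome RNA came from 1 lysate per the labels' protocols, and that pairing was run as a lysate block. Genes given with full statistics are the called genes with the 2 highest and 2 lowest changes in a comparison and the 3 highest and lowest within Control and DMSO. Core subunits are given per library where a result turns on them. Further genes named as examples of a role or as exceptions, and those of other lists beyond the 2 largest called changes, were chosen after their values were seen. Members and lists were chosen with earlier results of these data known. On simulated data the total RNA fit without methionine found 79% of genes changed by 0.5 on the log2 scale, and the ratio fit 42%. In the drug experiment, simulated for 4EGi1 against DMSO alone, the ratio fit found 6% of genes changed by 0.5. At a change of 1 these 3 fits found 98%, 89% and 72%. Promoter sequences are RefSeq's. Values of 1 gene of the family are not reported here, though it is in every count. Polysome replicate 3 of Torin and replicate 2 of 4EGi1 carry an added letter in their labels whose meaning is not given.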

Additional observations from a re-analysis of the deposited data

How the results depend on the processing

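The polysome counts in the 5 deprivations stayed within 1.5 times under every alternative run. Counts that moved further are these, each in either direction and given without the share of all genes called. With only the condition and its control in the fit, total RNA counts were 0 without arginine, 2 without branched chain amino acids, 14 without glucose, 10 without glutamine and 1 without methionine. With the replicate number as a replicate block the total RNA count without glutamine was 8. The replicate block changed no other total or polysome count by over 1.5 times, and the lysate block gave the ratio counts 3 with Torin and 2 with 4EGi1. With library totals only, total RNA counts were 3 without branched chain amino acids and 4 with Torin, polysome counts were 5 with Torin and 5 with 4EGi1, and the ratio count without glucose was 15. Without rows derived from ribosomal RNA, ratio counts were 13 without branched chain amino acids and 18 without glucose. The Torin ratio count was 1 with RLE size factors and 5 by DESeq2, which gave 1 with 4EGi1. For methionine against other deprivations in total RNA, added after the data were seen, library totals gave 2 against arginine, 2 against branched chain amino acids and 10 against glucose, and DESeq2 gave 1 against branched chain amino acids. The summed level relative to its control moved by more than its spread with library totals in total RNA without glucose (0.953), polysome RNA without branched chain amino acids (0.832) and polysome RNA with 4EGi1 (0.899). Leaving out 1 library in turn gave, in total RNA, 0 to 1 calls without arginine, 0 to 1 without branched chain amino acids, 2 to 6 without glucose, 1 to 6 without glutamine, 0 to 12 without methionine and 1 to 3 with Torin. It gave polysome counts of 2 to 12 with Torin and 3 to 19 with 4EGi1. It gave ratio counts of 6 to 22 without arginine, 14 to 22 without branched chain amino acids, 17 to 29 without glucose and 0 to 1 with Torin. For methionine against another deprivation it gave total RNA counts of 1 to 4 (arginine), 0 to 9 (branched chain amino acids), 4 to 19 (glucose) and 1 to 18 (glutamine), and ratio counts of 19 to 31, 16 to 28 and 12 to 27 against arginine, branched chain amino acids and glutamine. The cause of these moves was not tested. Of the 65 named results none changed direction. They were picked as called genes with the highest or lowest changes in these data, so a change of direction was unlikely from the start. Calls were lost in 9 of 428 values under other settings and in 52 of 357 with a library left out. The share of calls over all genes that were higher also moved with scaling: without branched chain amino acids the ratio split was 29.8% higher, and 60.5% without rows derived from ribosomal RNA; without glutamine 28.4% and 54.5%; without glucose 34.3% and 60%; without arginine 40.7% and 61%; and without methionine 39.2% and 50.6%. With library totals the polysome split was 82.7% higher with Torin and 83.7% with 4EGi1, against 50.6% and 49.3%, and the ratio split 45.2% and 81.9%, against 6.58% and 50%. A planned look at protein length was not run. Ndufb2 had the fewest reads, at 0.461 to 2.18 CPM over all libraries.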
